A study of Mus musculus with 16 samples.

Results

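Cultured mouse neural progenitor cells (NPCs) that carried a Chd1-targeting guide were compared after 24 h with dihydrotestosterone (DHT) plus enzalutamide (ENZ) and after vehicle (DMSO). The comparison holds 8 of the 16 samples of the series, the 4 labelled KO DHT+ENZ and the 4 labelled KO DMSO, chosen by their labels and taken as 4 pairs with the same replicate number. NPCs were grown from embryonic day 18.5 cortex of embryos from 2 litters. The litter of each replicate is not given. Cells of both groups had received the same lentivirus with constitutively expressed Cas9 and a guide RNA against Chd1, followed by puromycin selection, so the cultures are selected pools and not clones. ENZ was given at 10 µM, 30 min before DHT at 10 nM. The series also holds 4 libraries of the same knockout cells with 10 nM DHT alone and 4 of control cells (Cas9 without a guide) with DMSO. No group received ENZ alone, so an effect of ENZ on DHT signalling and an effect of ENZ by itself cannot be told apart here.

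DHT is an androgen, a steroid hormone that acts on transcription. Enzalutamide is an antagonist of androgen signalling, used against prostate cancer. Chd1 encodes a chromatin remodeller that moves nucleosomes on transcribed genes. Progenitors of the cortex divide in culture under FGF and EGF. In dividing cells, genes for DNA replication are read mainly around the start of S phase under E2F factors, and genes for mitosis peak in G2 and M under the MYBL2 and FOXM1 complexes.

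Depth was 31.8 to 35.5 M estimated counts in the 8 libraries. Chd1 itself was at 65.2, 65.4, 67.5 and 71.0 CPM (counts per 1 M) in KO DMSO replicates 1 to 4 and at 72.9, 59.9, 71.0 and 68.9 CPM in KO DHT+ENZ. The control cells with DMSO had 60.2 to 73.8 CPM, and since small edits can leave RNA level intact, this level does not check the genotype. Replicates 1 and 4 of either group resembled each other, as did replicates 2 and 3, and the first principal component of the 8 libraries (45.7% of the variance) parted them this way. Mitochondrial genes held 3.58% ± 0.09 of counts in KO DMSO and 4.33% ± 0.08 (SD, n = 4 each; 4.27% to 4.45%) in KO DHT+ENZ. The stem and radial glia markers, among them Nes, Vim, Sox2 and Fabp7, summed to 10868.5 to 12285.0 CPM in KO DMSO and 11307.1 to 12622.4 CPM in KO DHT+ENZ. Members moved in both directions. Tnc averaged 1743.4 CPM in KO DMSO and 2146.2 CPM in KO DHT+ENZ, and Fabp7 1699.1 and 1560.9 CPM, chosen after their values were seen. In these bulk samples, fewer cells of a type and less RNA per cell cannot be told apart.

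The combined treatment moved 499 of 16971 genes at an adjusted p under 0.05 (edgeR, replicate number as a block, Benjamini-Hochberg), here called rose or fell. Of all genes tested, 2.09% (354) fell and 0.854% (145) rose. All of the 499 moved the same way in all 4 pairs. The call uses these same pairs and favours such genes, so this is no separate support. The changes were small: the median log2 fold change was -0.45 among genes that fell and 0.39 among those that rose, and 52 and 27 of them changed by over 1.5-fold. The median over all genes was 0.01. Without the replicate block 34 fell (0.2%) and 9 rose (0.053%), so most calls rest on that block. Under the combined treatment the fallen genes were led by the cell division machinery, and the risen genes held groups of lipid export, lysosome, amino sugar and amino acid stress genes.

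**Figure D1:**
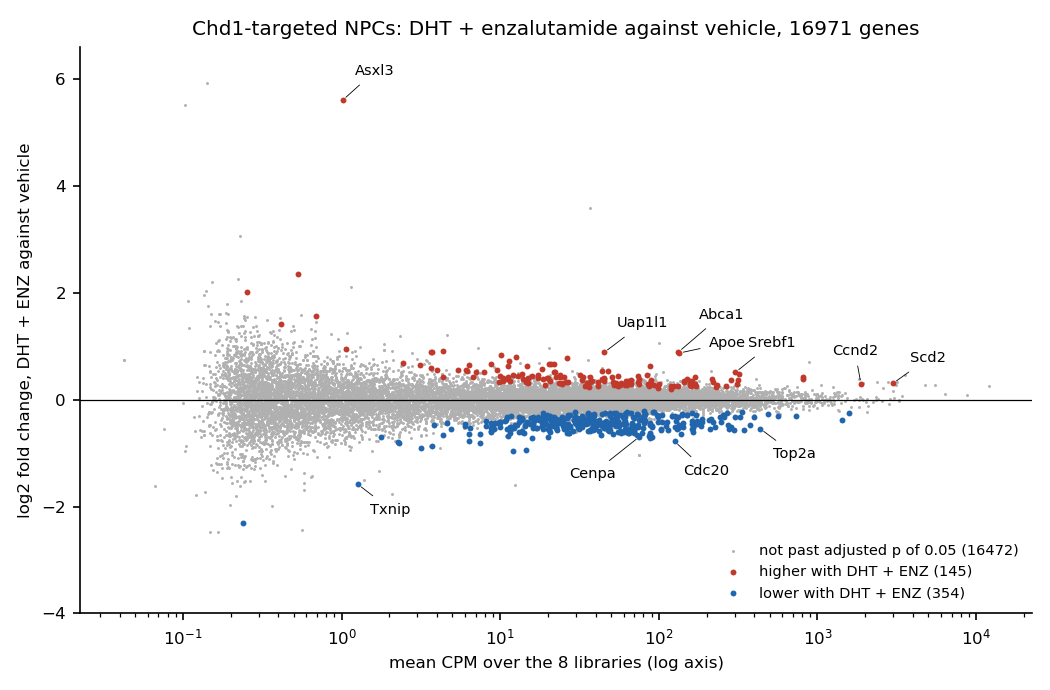
Each point is a gene, with its mean CPM over the 8 libraries on a log axis and its fitted log2 fold change (DHT + ENZ against vehicle). Blue points are the 354 genes that fell and red points the 145 that rose, and the fallen genes lie mainly between -0.21 and -1.

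Genes that encode the machinery of mitosis fell together. In 5 lists that together hold 126 measured genes (kinesins, kinetochore, spindle, chromosome condensation, and the kinases and cyclins of G2/M), 95 fell, none rose, and all 126 had a fold change below 0. Their median log2 fold change was -0.51, and they made up 26.8% of all genes that fell. Within pairs, the medians of the 5 lists lay between -0.35 and -0.65. With replicates 1 and 4 alone the median over the 126 genes was -0.57 and none passed. With replicates 2 and 3 alone it was -0.45 and 72 passed. Such fits, here and below, hold all 4 groups, so the former include control-cell replicate 1. That library had 20.2 M counts and lay at 74.9 on the second principal component of all 16 libraries. Every other library lay between -19.2 and 8.1. Its part in these counts was not tested, so the counts do not compare the size of the fall. Without the replicate block 26 of them passed, and with any 1 of the 8 libraries left out 70 to 87 passed.

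All 22 measured G2/M kinases and cyclins fell, with a median of -0.53, and 1 of them passed without the block. Without KO DHT+ENZ replicate 4, 14 passed. Ccnb1, the cyclin whose partner kinase drives entry into mitosis, was at 163, 159, 188 and 160 CPM in KO DMSO replicates 1 to 4 and at 98.8, 110, 131 and 93.6 CPM in KO DHT+ENZ. The groups did not overlap, and each treated culture lay below its own pair by 0.52 to 0.77 on the log2 scale. The fitted log2 fold change of Ccnb1 was -0.64 (SE 0.07; adjusted p = 2.26e-04, edgeR; 0.0467 without the block). Its kinase Cdk1 fell by 0.52, the spindle pole kinase Aurka by 0.65, Melk by 0.66, Nek2 by 0.53 and Ube2c, the ubiquitin-conjugating enzyme of the anaphase-promoting complex, by 0.57 on the log2 scale.

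Of 14 mitotic kinesins, motors that sort chromosomes and bundle the spindle midzone, 12 fell (8 without the block; median -0.56). Kif20a, which acts in cytokinesis, was at 106, 105, 128 and 112 CPM in KO DMSO and at 59.5, 74.9, 79.2 and 65.5 CPM in KO DHT+ENZ, and the groups did not overlap. Its log2 fold change was -0.70 (SE 0.08; adjusted p = 3.92e-04, edgeR). Kif22, Kifc1, Kif4, Kif18b and Kif2c followed at -0.62, -0.62, -0.60, -0.59 and -0.57. The members that did not pass were Kif18a (-0.47, SE 0.18) and Kif24 (-0.16, SE 0.15), named after their values were seen.

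Of 46 genes of the kinetochore and the spindle checkpoint, 28 fell (7 without the block; median -0.46). Cenpa, the histone H3 variant that marks centromeres, was at 94.4, 82.6, 109 and 87.5 CPM in KO DMSO and at 53.3, 55.8, 70.7 and 51.4 CPM in KO DHT+ENZ. All 4 treated libraries were below all 4 vehicle libraries, with a log2 fold change of -0.69 (SE 0.06; adjusted p = 9.51e-05, edgeR; 0.0287 without the block). Cenpf, a kinetochore protein of G2, fell by 0.58, the checkpoint kinase Bub1b by 0.62, Birc5 (survivin) by 0.61 and its partner Cdca8 by 0.54. Knstrn, which helps chromosomes align, fell by 0.71 (SE 0.08).

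Of 30 spindle and cytokinesis genes, 23 fell (5 without the block; median -0.49). Tpx2, the activator of Aurora A on spindle microtubules, was at 185, 195, 227 and 187 CPM in KO DMSO and at 121, 141, 144 and 115 CPM in KO DHT+ENZ, again without overlap. Its log2 fold change was -0.61 (SE 0.05; adjusted p = 9.51e-05, edgeR). The largest fall in the list was that of Cdc20, the activator of the anaphase-promoting complex (-0.78, SE 0.09), from 159 ± 29.5 to 93.1 ± 21.5 CPM (SD, n = 4 each). Troap (-0.71), Tacc3 (-0.68), Dlgap5 (-0.62) and Racgap1 (-0.55) also fell. Pttg1 (securin) stood at 25.4 CPM in KO DMSO and 25.0 CPM in KO DHT+ENZ on average and did not pass (-0.02, SE 0.11), named after its values were seen.

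Of 14 genes of chromosome condensation and mitotic chromatin, 10 fell (5 without the block; median -0.53). Top2a, which untangles sister chromatids, was at 521, 470, 557 and 524 CPM in KO DMSO and at 343, 353, 399 and 325 CPM in KO DHT+ENZ. Its log2 fold change was -0.55 (SE 0.07; adjusted p = 6.50e-04, edgeR; 0.0347 without the block), with no overlap between groups. Mki67, the proliferation antigen that coats mitotic chromosomes, fell by 0.57, the condensin subunits Ncapd2 and Ncaph by 0.55 and 0.41, and the helicase Pif1 by 0.97.

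**Figure D2:**
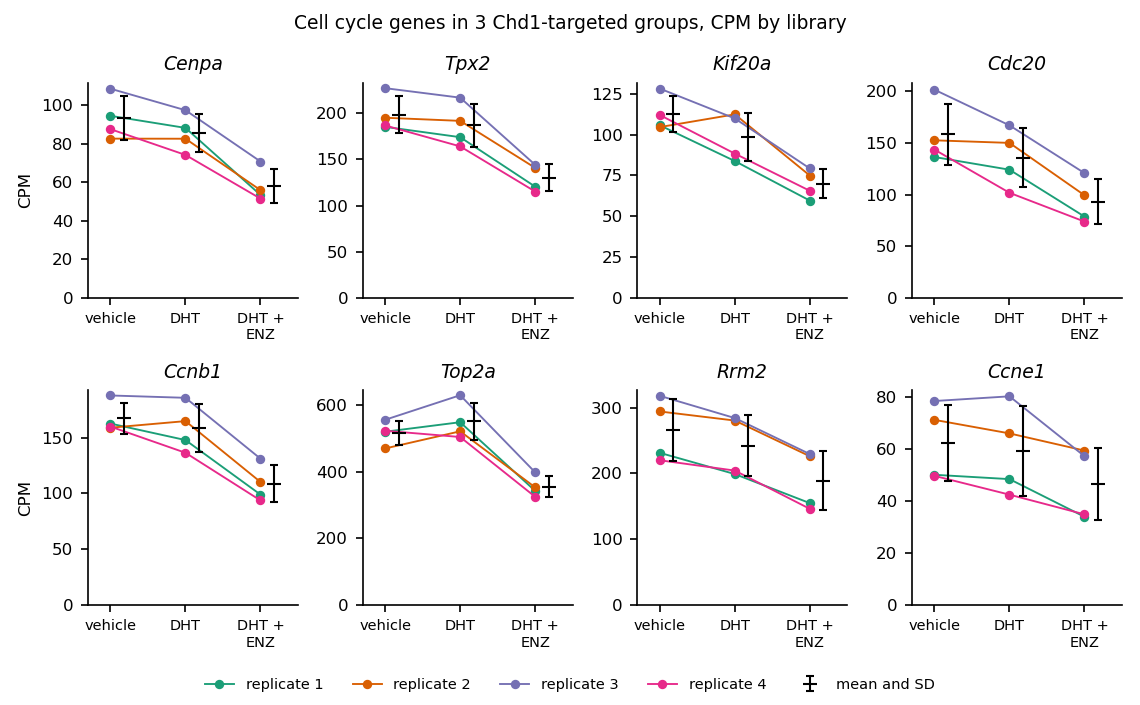
CPM of 8 cell cycle genes in each library of the 3 knockout groups, with lines that join the same replicate number and a bar for the mean and SD (n = 4). In Cenpa, Tpx2, Kif20a, Cdc20, Ccnb1 and Top2a all KO DHT+ENZ points lie below all vehicle points, while Rrm2 and Ccne1 overlap and fall within each pair.

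Promoters of mitotic genes are known to carry a CCAAT box and a cell cycle homology region (CHR), the element through which MYBL2 and FOXM1 complexes act. The 250 bases before the transcription start were searched on both strands for CCAAT and for the CHR letters TTTGAA or TTCGAA in the RefSeq promoter table (build GRCm38.p6). Of the 95 mitosis genes that fell, 77 were matched, with 85 windows: 45.9% held a CHR form, 67.1% held CCAAT and 34.1% held both. Among the windows of all genes tested, the shares were 12.8%, 35.1% and 4.9%, and over every window of that source they were 17.1%, 33.8% and 6.02%. A match describes letters and is not a bound site. The windows of the 4 fallen mitosis genes with the smallest p and an entry are shown so that matches can be seen in place. Capitals mark each match to either motif. A CCAAT on the opposite strand reads ATTGG here. A CHR on the opposite strand reads TTCAAA. Cenpa lies on the plus strand of chr5:30666636-30666885, Racgap1 on the minus strand of chr15:99651657-99651906, Kif22 on the minus strand of chr7:127042421-127042670 and Kif4 on the plus strand of chrX:100625815-100626064.
Cenpa: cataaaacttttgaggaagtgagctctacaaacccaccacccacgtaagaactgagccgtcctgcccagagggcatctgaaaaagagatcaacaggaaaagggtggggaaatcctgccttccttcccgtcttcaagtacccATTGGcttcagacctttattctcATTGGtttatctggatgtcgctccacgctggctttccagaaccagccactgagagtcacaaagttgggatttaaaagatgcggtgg
Racgap1: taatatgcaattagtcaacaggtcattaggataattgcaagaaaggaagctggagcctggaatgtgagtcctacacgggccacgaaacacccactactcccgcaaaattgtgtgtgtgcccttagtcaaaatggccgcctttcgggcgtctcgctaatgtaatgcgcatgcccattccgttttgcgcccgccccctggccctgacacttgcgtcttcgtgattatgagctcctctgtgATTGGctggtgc
Kif22: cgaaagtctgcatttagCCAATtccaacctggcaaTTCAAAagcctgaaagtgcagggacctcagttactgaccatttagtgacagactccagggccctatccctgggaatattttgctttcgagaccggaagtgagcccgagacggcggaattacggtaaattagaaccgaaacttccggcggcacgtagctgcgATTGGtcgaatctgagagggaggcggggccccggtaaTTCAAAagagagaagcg
Kif4: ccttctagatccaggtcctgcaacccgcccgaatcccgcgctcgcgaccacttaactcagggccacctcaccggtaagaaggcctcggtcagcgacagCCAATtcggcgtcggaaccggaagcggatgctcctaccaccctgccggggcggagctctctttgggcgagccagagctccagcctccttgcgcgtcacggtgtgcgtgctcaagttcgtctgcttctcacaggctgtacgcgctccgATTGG
Each of these windows held CCAAT, and the window of Kif22 also held the CHR letters at 2 places. The other 3 windows held neither CHR form. The tabulated start of Kif4 lay 328 bases from the start of its most abundant GENCODE M21 transcript, and the other 3 lay within 51 bases.

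Genes of DNA replication and nucleotide supply fell as a second group. Of 46 measured, 37 fell, none rose and all had a fold change below 0 (median -0.42), and none passed without the block. Leaving out 1 of the 8 libraries at a time left 22 to 35 that fell, with the fewest without KO DHT+ENZ replicate 4, and 23 without KO DHT+ENZ replicate 1 or KO DMSO replicate 4. Rrm2, the regulated subunit of ribonucleotide reductase, was at 231, 294, 318 and 220 CPM in KO DMSO and at 155, 226, 229 and 146 CPM in KO DHT+ENZ. The groups overlapped because replicates 2 and 3 were higher in both, but each treated culture was below its pair (-0.38 to -0.59). Its fitted log2 fold change was -0.50 (SE 0.06; adjusted p = 3.53e-04, edgeR; 0.624 without the block). The large subunit Rrm1 fell by 0.51, the checkpoint adaptor Clspn by 0.50, the origin factor Mcm10 by 0.48, the helicase subunit Mcm6 by 0.39 and the single-strand binding protein Rpa1 by 0.35. With replicates 1 and 4 alone none passed (median -0.46), and with replicates 2 and 3 alone 17 passed (median -0.35).

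Of 18 cell cycle transcription factors, 7 fell and none rose (2 without the block; median -0.25), and 4 passed without KO DMSO replicate 1, 3 or 4 or KO DHT+ENZ replicate 1 or 4. They included Mybl2 (-0.49) and Foxm1 (-0.50), which act on mitotic genes, E2f2 (-0.54) and E2f7 (-0.57), the E2F partner Tfdp1 (-0.28) and the pocket protein Rbl1 (-0.37). Foxm1 was at 84.9, 76.1, 83.6 and 86.4 CPM in KO DMSO and at 58.8, 55.0, 65.0 and 55.4 CPM in KO DHT+ENZ. Its groups did not overlap (adjusted p = 0.0048, edgeR; 0.0467 without the block).

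The 15 regulators of G1 moved in both directions (3 fell, 2 rose, none without the block; median -0.06). With 1 library left out, 2 or 3 fell and 0 to 2 rose, and both rises were kept in count only without KO DHT+ENZ replicate 2. Ccne1, the cyclin of S phase entry, fell by 0.44 on the log2 scale (SE 0.07), and the CDK4/6 inhibitors Cdkn2c (-0.49) and Cdkn2d (-0.36) fell too. Ccnd2, the D-type cyclin that links growth factors to CDK4/6, rose from 1783, 1548, 1485 and 1957 CPM to 2137, 1866, 2052 and 2218 CPM. Its groups overlapped in replicate 4 of the vehicle, and its log2 fold change was 0.30 (SE 0.06; adjusted p = 0.0188, edgeR). The inhibitor Cdkn2b rose by 0.31 (SE 0.07). Cdkn1a (p21), the main p53 target that blocks CDKs, did not pass (-0.04, SE 0.05; adjusted p = 0.835, edgeR), and 0 of 23 measured p53 targets passed with or without the block. Phlda3 had the smallest p of that list (-0.21, adjusted p = 0.144, edgeR).

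Of 29 genes of homologous recombination and fork repair, 13 fell, none rose and 28 had a fold change below 0 (1 without the block; median -0.37). With 1 library left out 5 to 10 fell, the fewest without KO DMSO replicate 4. Without control-cell replicate 1, 19 fell, beside 762 of all 17230 genes tested in that fit. The 13 included Fancd2 (-0.49), the recombination factor Rad51ap1 (-0.46), the nuclease subunit Eme1 (-0.62), Rad54b (-0.54) and Brca1 (-0.43). Fancd2 was at 30.5, 29.6, 32.6 and 32.5 CPM in KO DMSO and at 22.8, 23.9, 20.6 and 22.1 CPM in KO DHT+ENZ, and it was the member that also passed without the block (adjusted p = 0.0287, edgeR). Outside the lists, and chosen after their values were seen, the nuclear lamina gene Lmnb1 fell (-0.55), as did the microtubule genes Tuba1b (-0.38), Tubb4b (-0.33) and Stmn1 (-0.49), the histone variant gene H2afz (-0.31) and the methyltransferase gene Ezh2 (-0.30). None of these 6 passed without the block.

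**Figure D3:**
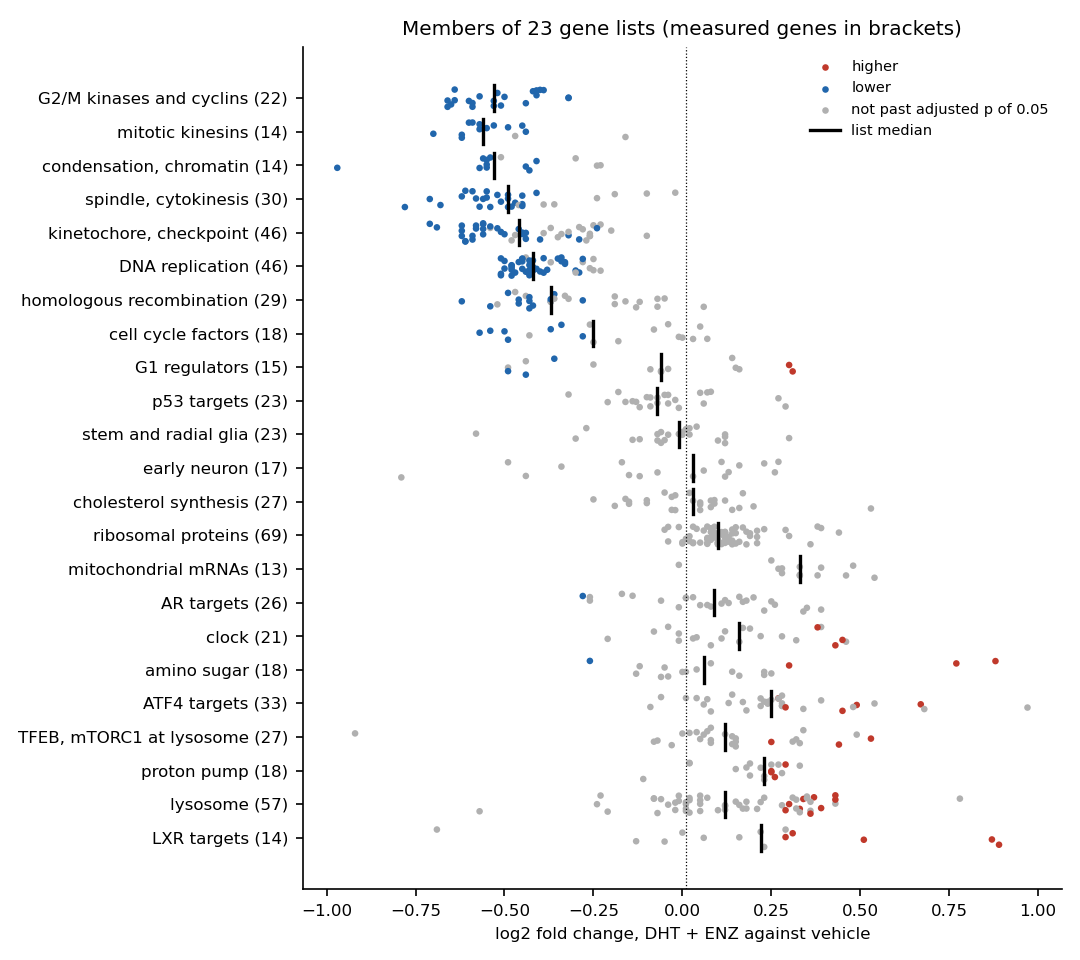
Fitted log2 fold changes (DHT + ENZ against vehicle) of the measured members of 23 gene lists, with a bar at each list's median and a dotted line at the median of all genes (0.01). Blue members fell, red members rose and grey members did not pass, and the mitosis and replication lists lie wholly below 0.

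Among the genes that rose were Abca1 and Apoe, targets of the liver X receptors (LXR). These receptors sense oxysterols and switch on genes that move cholesterol out of the cell and make fatty acids. Of 14 measured genes of this axis, 5 rose, none fell and none passed without the block (median 0.22). With 1 of the 8 libraries left out 2 to 4 rose, and 2 did so without either replicate 1, either replicate 4 or KO DMSO replicate 2. Abca1, the pump that loads cholesterol onto apolipoproteins, was at 79.0, 100.4, 107 and 85.3 CPM in KO DMSO and at 138, 182, 188 and 182 CPM in KO DHT+ENZ. All treated libraries exceeded all vehicle libraries, with a log2 fold change of 0.89 (SE 0.10; adjusted p = 3.53e-04, edgeR; 0.0543 without the block).

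Apoe, the lipid carrier secreted by glia, was at 67.7, 109.9, 128 and 74.8 CPM in KO DMSO and at 129, 221, 218 and 128 CPM in KO DHT+ENZ. Replicates 2 and 3 were higher in both groups, so the groups met at their edge, but each pair rose by 0.77 to 1.01. The fitted log2 fold change was 0.87 (SE 0.13; adjusted p = 0.00205, edgeR; 0.358 without the block). Srebf1, the master factor of fatty acid synthesis, rose by 0.51 (SE 0.11), from 253 ± 73.9 to 355 ± 77.2 CPM (SD, n = 4 each). The desaturase Scd2 rose by 0.31 and the phospholipid remodelling enzyme Lpcat3 by 0.29. Of the receptors themselves, Nr1h2 stood at 52.4 CPM in KO DMSO and 54.5 CPM in KO DHT+ENZ on average (0.06, SE 0.07) and Nr1h3 lay below 1 CPM in both, named after their values were seen. With replicates 1 and 4 alone the median of the list was 0.29, and with replicates 2 and 3 alone it was 0.12.

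Genes of cholesterol synthesis are driven by SREBP2 when sterol is low. None of 27 measured passed in either direction with or without the block, and their median was 0.03. The smallest p in the list belonged to Tm7sf2, a sterol reductase (-0.25, SE 0.07; adjusted p = 0.0985, edgeR). Of 22 genes of fatty acid synthesis and oxidation none passed (median 0.03), with the carboxylase Acaca nearest (0.25, SE 0.08; adjusted p = 0.124, edgeR).

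Some lysosomal genes rose, by small amounts. Of 57 hydrolases and membrane proteins of the lysosome, 9 rose and none fell (1 without the block), 44 had a fold change above 0, and the median was 0.12. With 1 of the 8 libraries left out 5 to 9 rose, and 5 did so without KO DMSO replicate 1 or either replicate 4. Without control-cell replicate 1, 21 rose and 1 fell, beside 485 and 762 of all 17230 genes tested in that fit. Ctsl, a cysteine protease, was at 141, 152, 154 and 126 CPM in KO DMSO and at 177, 214, 202 and 178 CPM in KO DHT+ENZ. The groups did not overlap and the log2 fold change was 0.43 (SE 0.06; adjusted p = 6.48e-04, edgeR; 0.055 without the block). Gaa, the acid glucosidase that degrades glycogen, was at 127, 132, 126 and 135 CPM in KO DMSO and at 168, 181, 158 and 174 CPM in KO DHT+ENZ. It rose by 0.39 (SE 0.07; adjusted p = 0.00636, edgeR; 0.0467 without the block). Npc2, which hands cholesterol to the exit channel of the lysosome, rose by 0.36, and the tetraspanin Cd63 by 0.37.

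The vacuolar proton pump, which acidifies the lysosome, had 4 of 18 measured subunits and accessory genes that rose and none that fell (none without the block), with 17 above 0 and a median of 0.23. That count does not hold with fewer libraries: leaving out KO DMSO replicate 2 or KO DHT+ENZ replicate 4 left 1, and leaving out any of the other 6 left 0. Without control-cell replicate 1, 12 rose, beside 485 of all 17230 genes tested in that fit. The 4 were Atp6v1g1 (0.29), Atp6v0b (0.25), Atp6v0a1 (0.25) and Atp6ap1 (0.26). Of 27 genes of the TFEB family and the nutrient-sensing complex on the lysosome surface, 3 rose (1 without the block; median 0.12), 2 to 4 with 1 of the 8 libraries left out and 7 without control-cell replicate 1. Rragd, a Rag GTPase that is a known TFEB target, was at 39.7, 36.2, 39.7 and 41.0 CPM in KO DMSO and at 59.7, 53.6, 52.98 and 60.3 CPM in KO DHT+ENZ. Its log2 fold change was 0.53 (SE 0.08; adjusted p = 0.0026, edgeR; 0.0467 without the block), with no overlap.

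Flcn (folliculin), the GTPase-activating protein that acts on RagC and RagD, was at 54.8, 41.0, 40.5 and 52.0 CPM in KO DMSO and at 73.8, 58.4, 51.3 and 73.4 CPM in KO DHT+ENZ. Replicates 1 and 4 were the higher in either group, so the groups overlapped while every pair rose (0.34 to 0.51). It rose by 0.44 (SE 0.06; adjusted p = 0.00102, edgeR; 0.528 without the block). The autophagy gene Gabarapl1 rose by 0.25. Tfeb itself stood at -0.07 and Tfe3 at 0.00 on the log2 scale, named after their values were seen, and neither passed. TFEB binds CACGTG. Of the 16 genes of these 3 lists that rose, 13 had a promoter in the table, and 3 of those 13 windows (23.1%) held CACGTG on either strand, beside 7.86% of the windows of all genes tested. With so few windows the share is a description.

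**Figure D4:**
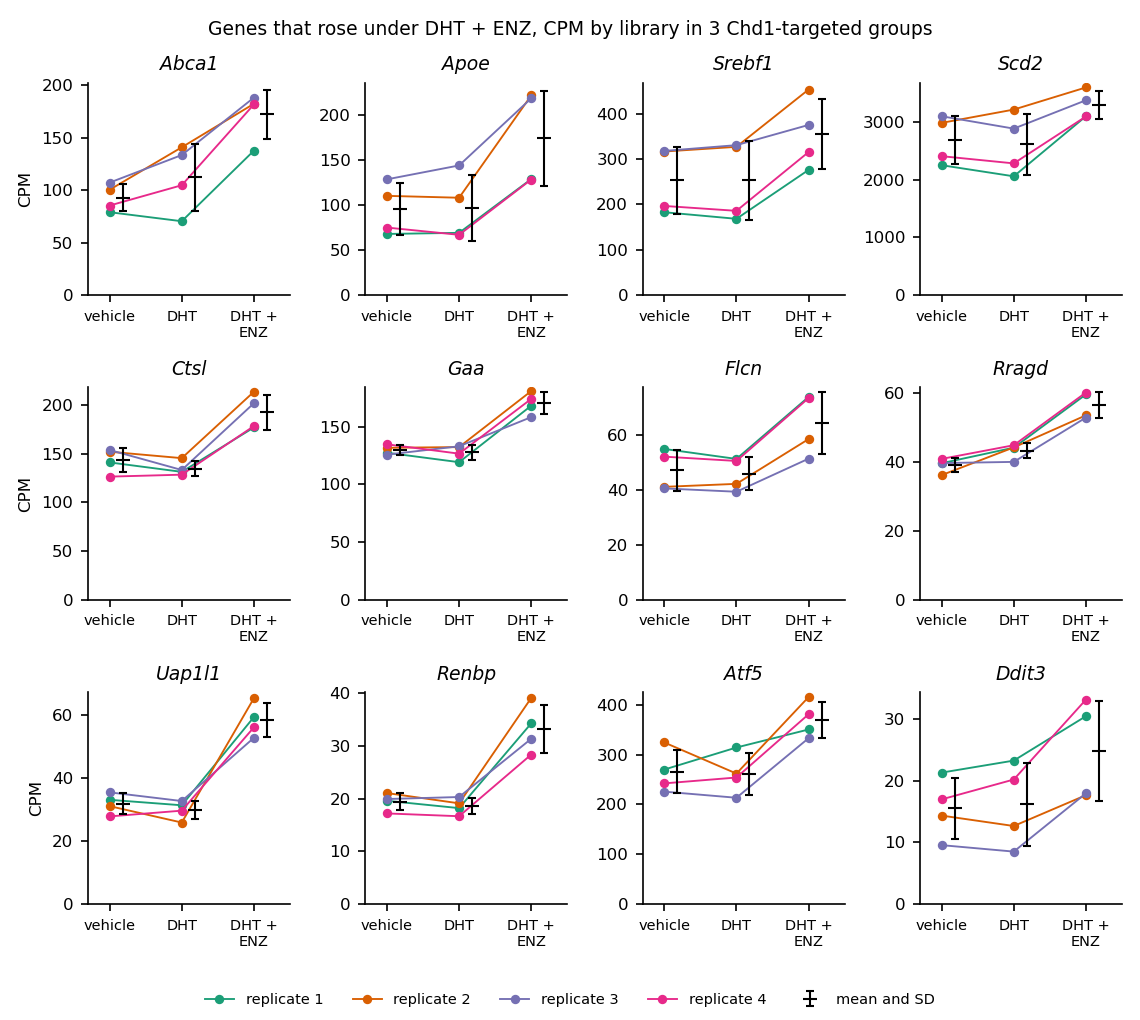
CPM of 12 genes that rose, in each library of the 3 knockout groups, with lines that join the same replicate number and a bar for the mean and SD (n = 4). Abca1, Ctsl, Gaa, Rragd, Uap1l1, Renbp and Atf5 have all KO DHT+ENZ points above all vehicle points, and Apoe, Srebf1, Scd2, Flcn and Ddit3 rise within each pair.

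Amino sugar enzymes feed or drain the pool of UDP-N-acetylglucosamine used in glycosylation. Of 18 measured, 3 rose and 1 fell (2 rose and none fell without the block; median 0.06). With 1 of the 8 libraries left out 2 or 3 rose, and the 1 fall was kept in count only without KO DHT+ENZ replicate 2. Uap1l1, a paralog of the enzyme that makes UDP-N-acetylglucosamine, was at 33.2, 31.1, 35.5 and 27.9 CPM in KO DMSO and at 59.5, 65.5, 52.9 and 56.2 CPM in KO DHT+ENZ. It rose by 0.88 (SE 0.11; adjusted p = 4.55e-04, edgeR; 0.0215 without the block), and no treated library came near the vehicle range. Renbp, which epimerises N-acetylglucosamine, was at 19.6, 21.1, 20.0 and 17.2 CPM in KO DMSO and at 34.3, 39.2, 31.4 and 28.4 CPM in KO DHT+ENZ. It rose by 0.77 (SE 0.11; adjusted p = 0.00105, edgeR; 0.0287 without the block). Gnpda1, a glucosamine-6-phosphate deaminase, rose by 0.30, and Nans, the sialic acid synthase, fell by 0.26. Uap1 itself did not pass (-0.04), named after its value was seen.

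ATF4 drives genes of amino acid supply and stress. Of 33 such genes, 5 rose, none fell, 31 had a fold change above 0 and none passed without the block (median 0.25). None rose without KO DMSO replicate 3 or 4, 1 without KO DHT+ENZ replicate 4, and 2 to 4 with any of the other 5 left out. Without control-cell replicate 1, 16 rose, beside 485 of all 17230 genes tested in that fit. With only the 8 libraries compared in the fit 22 rose, beside 850 of all 16971. Atf5, a related factor, was at 270, 325, 226 and 242 CPM in KO DMSO and at 351, 416, 333 and 381 CPM in KO DHT+ENZ. It rose by 0.49 (SE 0.10; adjusted p = 0.0133, edgeR; 0.202 without the block), and the groups did not overlap. Ddit3 (CHOP), a stress-induced factor, was at 21.3, 14.3, 9.55 and 17.0 CPM in KO DMSO and at 30.5, 17.7, 18.0 and 33.2 CPM in KO DHT+ENZ. Its groups overlapped, and it rose by 0.67 (SE 0.13; adjusted p = 0.00957, edgeR; 0.816 without the block). Aldh1l2, a mitochondrial folate enzyme, rose by 0.45, the seryl-tRNA synthetase Sars by 0.29 and the arginine transporter Slc7a1 by 0.27. Of 22 endoplasmic reticulum chaperones and sensors 2 rose (none without the block; median 0.01), the sensor Atf6 (0.38) and the degradation adaptor Sel1l (0.28). With 1 library left out, 1 passed without KO DHT+ENZ replicate 2 and none otherwise.

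Other signal-dependent genes rose in small numbers, and in the clock and immediate early lists 1 or 2 rose when any 1 of the 8 libraries was left out. Of 21 clock genes, 3 rose (1 without the block; median 0.16): the repressors Bhlhe40 (0.43, SE 0.07) and Bhlhe41 (0.45, SE 0.10) and the receptor Rorb (0.38, SE 0.08). Bhlhe40 was at 42.4, 41.9, 44.1 and 42.7 CPM in KO DMSO and at 59.7, 55.5, 52.6 and 63.9 CPM in KO DHT+ENZ, with no overlap. Of 33 immediate early genes, 3 rose (none without the block; median 0.13), namely Nr4a1 (0.56), Fosl2 (0.40) and Maff (0.35). Vegfa, the vascular growth factor, was the single member of 29 hypoxia and glycolysis genes that rose (0.44, SE 0.08; median 0.05).

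Of 26 measured target genes that androgens and glucocorticoids share, 1 fell and none rose (none without the block; median 0.09). That was Fkbp5, a cochaperone of steroid receptors, at 59.3, 68.8, 78.7 and 59.4 CPM in KO DMSO, 56.5, 77.0, 79.8 and 56.2 CPM in KO DHT and 46.3, 61.1, 63.8 and 49.0 CPM in KO DHT+ENZ. Against vehicle it fell by 0.28 (SE 0.07; adjusted p = 0.0333, edgeR; 0.956 without the block), lower in each pair while the groups overlapped, and it did not pass when any 1 of the 8 libraries was left out. Zbtb16, a transcription factor induced by steroid receptors, was at 3.85, 3.72, 3.53 and 4.22 CPM in KO DMSO, 6.38, 6.54, 5.32 and 6.003 CPM in KO DHT and 5.19, 3.42, 5.13 and 3.54 CPM in KO DHT+ENZ. Against vehicle its log2 fold change was 0.18 (SE 0.21; adjusted p = 0.817, edgeR), higher in 2 of 4 pairs.

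Of 18 measured steroid receptors and coregulators, 2 fell, Fkbp5 and Srd5a1 (none without the block; median 0.02). Srd5a1, the reductase that makes DHT from testosterone, fell by 0.42 (SE 0.09; adjusted p = 0.023, edgeR; 0.199 without the block), from 13.95, 12.7, 17.4 and 15.97 CPM to 11.6, 11.4, 11.0 and 10.6 CPM. The groups of Srd5a1 did not overlap, and its call was lost when any library of replicate 3 or 4 was left out.

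The largest single falls and rises were mostly in genes of low level. Txnip, the thioredoxin-interacting protein that curbs glucose uptake, fell most among genes whose mean reached 1 CPM, from 0.705, 3.37, 2.52 and 1.18 CPM to 0.381, 0.895, 0.493 and 0.590 CPM. Its groups overlapped, and the log2 fold change was -1.59 (SE 0.28; adjusted p = 0.00548, edgeR; 0.364 without the block). Other large falls were those of Pif1 (-0.97), Rcn3 (-0.94), a calcium-binding protein of the secretory path, the receptor Tnfrsf18 (-0.87), the matrix protein gene Prelp (-0.81), Kirrel2 (-0.81), the chaperone gene Clgn (-0.79) and Mdga1 (-0.78), which encodes a membrane-anchored synaptic regulator. Tuba1c, an alpha tubulin gene, fell by 0.71.

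The largest fitted rise was that of Asxl3, a Polycomb-associated gene, at 5.61. It rests on values near 0: 0.147, 0, 0 and 0 CPM in KO DMSO and 3.25, 1.82, 0.0329 and 2.89 CPM in KO DHT+ENZ, so the size has no fixed meaning. KO DHT had 3.01 and 1.64 CPM in replicates 2 and 4. Other large rises were those of Tmem74 (0.95), Fabp3, a fatty acid carrier (0.89), the interleukin 6 receptor gene Il6ra (0.88), the granin gene Scg2 (0.84), mt-Tp (0.80), Cystm1 (0.73) and Ppil6 (0.69). Scg2 was at 10.4, 4.97, 3.62 and 9.05 CPM in KO DMSO and at 18.5, 7.64, 5.82 and 20.6 CPM in KO DHT+ENZ. Replicates 1 and 4 were high in both groups, and the call disappeared without the block (adjusted p = 1, edgeR; 6.15e-04 with it).

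The 13 mitochondrial messenger RNAs had a median log2 fold change of 0.33, with 12 above 0, and none passed with or without the block. The nearest was mt-Nd6 (0.38, SE 0.16; adjusted p = 0.294, edgeR). Without control-cell replicate 1, a library of 20.2 M counts in a group outside this comparison, 8 of the 13 rose. In that fit 485 of all 17230 genes tested rose. Of 40 nuclear genes of oxidative phosphorylation, 1 rose (Ndufab1, 0.23; median 0.11, 39 above 0), a call lost when any 1 of the 8 libraries was left out. None of 69 ribosomal protein genes passed (median 0.10, with 64 above 0), and their reads are shared with pseudogenes. Within pairs 1 to 4 the medians were -0.00, 0.21, 0.11 and 0.04 for the oxidative phosphorylation list. Those of the ribosomal list were -0.02, 0.17, 0.19 and 0.04. The mitochondrial share of counts moved with the treatment beside all groups described above, and its part in them was not tested.

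Markers of cell identity showed no called change in most lists. None of 23 stem and radial glia genes and none of 17 early neuron genes passed (medians -0.01 and 0.03), and Neurod1 had the smallest p of the neuron list (-0.79, SE 0.29). The early neuron list summed to 936.7 to 1308.5 CPM in KO DMSO and 1068.4 to 1451.5 CPM in KO DHT+ENZ. Most of this sum came from Map2 alone, which averaged 1027.5 CPM in KO DMSO and 1115.1 CPM in KO DHT+ENZ. Of 10 measured oligodendrocyte precursor genes 1 fell (Bcas1, -0.47, SE 0.11), while 9 of the 10 had a fold change below 0 (median -0.15, and -0.10 to -0.26 within pairs). Pdgfra, the receptor that marks these precursors, averaged 3.17 CPM in KO DMSO and 2.12 CPM in KO DHT+ENZ (-0.61, SE 0.26), and the proteoglycan gene Cspg4 59.2 and 49.5 CPM (-0.27, SE 0.14), named after their values were seen. That list summed to 2120.2 to 2872.2 CPM and 1961.2 to 2757.8 CPM, most of it from Olig1 and Olig2. In the astrocyte list only Apoe rose, of 15 measured, and the list summed to 2274.6 to 2868.3 CPM and 2260.3 to 3010.0 CPM. Gad1, the GABA-synthesising enzyme, rose by 0.53 (SE 0.12) from 4.55 to 6.08 CPM to 5.50 to 8.58 CPM. Bcas1 and Gad1 each kept the call in 1 of the 8 fits that left out a library.

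Markers of other cell types were low. The 10 microglia markers together held 4.2 to 6 CPM in KO DMSO and 4.14 to 4.72 CPM in KO DHT+ENZ, with 2 at 0 in all 8 libraries. Endothelial markers summed to 11.8 to 17.2 CPM and 11.7 to 15.6 CPM, and those of pericytes, meninges and fibroblasts to 22.8 to 36.1 CPM and 24.0 to 44.6 CPM. Ependymal markers summed to 38.01 to 48.3 CPM and 31.8 to 42.8 CPM. No gene of these 4 lists passed. Sfrp1, a Wnt inhibitor, fell by 0.32 as the single called gene of 18 in the Wnt list, and Tap1, the peptide transporter, by 0.31 as the single one of 21 interferon-response genes. Sfrp1 kept its call in 1 and Tap1 in 2 of the 8 fits that left out a library. None of the measured genes of the Notch (18), YAP (17), BMP and TGF-beta (18), extracellular matrix (25), NRF2 (23), xenobiotic (12), ribosome biogenesis (28) and CHD remodeller (10) lists passed.

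Testing each transcript identifier by itself gave fewer calls. Of 50603 transcripts, 83 fell (0.164%) and 9 rose (0.0178%) in edgeR with the block, and none passed without it (1401 at an unadjusted p under 0.05). Of these 92, 88 belonged to 85 of the genes called by summed counts, 46 of them fallen transcripts of the mitosis lists. Those that rose included Abca1-201 (0.88), Apoe-206 (0.82), Uap1l1-201 (0.87), Ctsl-201 (0.42), Cystm1-201 (0.80), Ppm1h-201 (0.63) and Hs1bp3-201 (0.47).

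Of the other 4 called transcripts, 2 belonged to genes that were not called. Ttc17-203, a coding transcript of a tetratricopeptide-repeat gene, was at 6.32, 10.9, 8.54 and 5.29 CPM in KO DMSO and at 2.103, 2.68, 4.46 and 1.92 CPM in KO DHT+ENZ, a log2 fold change of -1.49 (SE 0.20; adjusted p = 0.0143, edgeR; 0.882 without the block). It held 10.3%, 16.3%, 14.1% and 9.6% of the Ttc17 estimated counts under vehicle and 3.4%, 4.5%, 7.5% and 3.2% under the combined treatment. The shares did not overlap, while those of Ttc17-201, Ttc17-202 and Ttc17-204 did. Rnf146-201 was at 0 in all 4 vehicle libraries and at 1.08, 0.660, 1.09 and 0.271 CPM under treatment, at most 2.3% of its gene's counts. The remaining 2, ENSMUST00000247011.1 (-0.68) and ENSMUST00000238315.2 (2.24), matched no gene in the annotation, so whether their genes were called is not known.

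**Figure D5:**
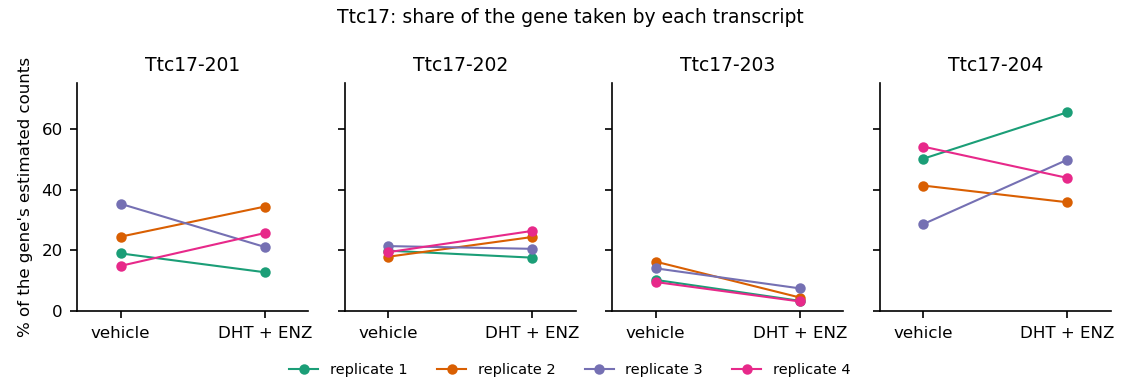
Share of the Ttc17 estimated counts (percent) taken by each of 4 transcripts in the vehicle and DHT + ENZ libraries, with lines joining the same replicate number. Ttc17-203 falls in all 4 pairs, from between 9.6% and 16.3% to between 3.2% and 7.5%, and the other 3 transcripts move in both directions.

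A test of each transcript's share of its gene (limma on the log2 ratio of the transcript to the rest of its gene) found 0 of 33754 past an adjusted p of 0.05, with 1204 at an unadjusted p under 0.05. Ttc17-203 (-1.61 on the log2 ratio scale, SE 0.21) and Rnf146-201 (4.53, SE 0.61) were nearest, both at adjusted p = 0.176 (limma). kallisto divides reads among overlapping transcripts, so estimated counts of single transcripts carry an error that these tests do not include. Syt17-202, Dhx30-224 and Khdc4-203, a transcript marked for nonsense-mediated decay, were among the next by p and did not pass.

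The DHT group gives the level under androgen alone, with the same replicate numbers. KO DHT against KO DMSO had 0% of genes called in either direction (1358 genes at an unadjusted p under 0.05; 0 called and 193 without the block, edgeR). KO DHT+ENZ against KO DHT had 1.57% (266) higher and 1.92% (325) lower. These comparisons share libraries with the main one, so their values are set side by side and are not independent. The 126 mitosis genes had medians of -0.05 for DHT over vehicle, -0.47 for the combination over DHT and -0.51 for the combination over vehicle. The 102 lysosome, proton pump and TFEB genes had -0.06, 0.22 and 0.15. Abca1 had 0.24 (SE 0.10), 0.65 and 0.89, Uap1l1 -0.09, 0.98 and 0.88, and Cenpa -0.12, -0.57 and -0.69. Of the 354 genes that fell against vehicle the median was -0.08 for DHT over vehicle and -0.38 for the combination over DHT, and of the 145 that rose 0.02 and 0.36. In Sel1l (0.18, 0.10 and 0.28), Atf6 (0.22, 0.17 and 0.38) and Ccnd2 (0.19, 0.10 and 0.30), the step from vehicle to DHT was the larger of the pair of steps, and neither step passed in any of these 3 genes.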

How the data were processed

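Poly(A) RNA was sequenced as paired reads. The authors quantified transcripts with kallisto against GRCm39, per the submitters' processing notes, and versions are not given in the sources used here. The deposited files hold estimated counts per transcript, with TPM and effective length, per the file headers. Gene names came from GENCODE M21 (names only), which matched 135007 of 146190 transcripts and 98.85% to 99.12% of counts, and promoters from RefSeq. Estimated counts were summed per gene and rounded. Deposited TPM was not tested.

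Genes were tested with edgeR 4.0.16 (R 4.3.3; TMM, quasi-likelihood, Benjamini-Hochberg at 0.05) on all 16 libraries, with group and replicate number as terms. The number was a block because the comparison was set up in pairs of the same replicate number. Over 9747 genes, same-numbered KO DMSO and KO DHT+ENZ libraries deviated together from their group means (r from 0.54 to 0.78). Each r was above the minimum of 0.1. Libraries with different numbers had r from -0.81 to 0.76, with 0.76 for KO DHT+ENZ replicate 2 and KO DMSO replicate 3. These r values thus do not set the pairing by number apart from the likeness of replicates 1 and 4 and of 2 and 3. The labels do not say what a number shares, and 6 of 8 libraries correlated best with their own number. Nothing in the labels says which replicates are separate animals. The p-values measure the spread left among all 16 libraries after group and replicate number are taken out. That spread (common biological coefficient of variation in edgeR) was 0.122 with the block and 0.212 without it. Fold changes of the text come from the fit, with CPM from TMM-scaled library sizes. Leaving-out, other normalizations, limma 3.58.1 and DESeq2 1.42.0 were alternatives. Transcripts were tested the same way. The planned edgeR test of transcript shares failed on simulated data and was replaced by limma on log2 ratios, chosen after the data were seen. The edgeR tests of genes and transcripts and the limma share test were run on simulated data too.

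Members and the 46 gene lists were chosen with earlier results of these data known. Genes named are Chd1, Fkbp5, Zbtb16, the 12 largest rises and falls with a mean of at least 1 CPM and an established symbol, and up to 6 called members per list and direction with the smallest p, or the nearest where none was called. Per-sample values are given for genes of this rule. Other names are marked as chosen after their values were seen, or are the remaining called members of a small list. Some genes that meet the rule are not reported here.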

Additional observations from a re-analysis of the deposited data

Results flagged for a closer look

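In groups of 4 libraries, the gap between the most extreme library and its nearest neighbour was compared with the group's range, and 13 of 270 gene and group combinations passed Dixon's 95% limit (4.82%), where chance passes about 1 in 20. Under vehicle, Kif4 was high in 1 library (78.5 CPM beside 64.2 to 65.7) and so was Ccnb1 (188 beside 159 to 163), both in replicate 3, while Bub1b was low in 1 (67.0 beside 80.2 to 82.6). Atf6 was low in 1 vehicle library (57.3 beside 67.5 to 68.8), as was Sel1l (135 beside 147 to 148). Chd1l was high in 1 vehicle library (28.1 beside 20.7 to 21.8), as were Dll3 (3.77 beside 2.43 to 2.53), Kdr (3.80 beside 2.40 to 2.61) and Asxl3 (0.147 beside 0 in the others), and Rsph1 was low in 1 (1.16 beside 2.31 to 2.496). Under DHT plus ENZ, Abca1 was low in 1 library (138 beside 182 to 188), Mki67 was low in 1 (219 beside 247 to 248) and Il6ra was high in 1 (6.04 beside 4.25 to 4.54).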

How the results depend on the processing

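The replicate block decides most calls. Whether pairing by number or the likeness of replicates 1 and 4 and of 2 and 3 accounts for this was not tested. Counts are given as genes that rose and genes that fell, 145 and 354 with the replicate block. With no replicate block they were 9 and 34. With only the 8 libraries compared they were 850 and 1019 with the block, and 0 and 0 with no replicate block (1237 genes at an unadjusted p under 0.05, edgeR). Leaving out control-cell replicate 1 gave 485 and 762. A length offset as in tximport gave 63 and 225, a minimum fold of 1.2 gave 10 and 49, and DESeq2 gave 285 and 534. The fold changes of pairs 1 to 4 correlated with transcript length at a Spearman rho of 0.30, -0.08, 0.16 and 0.05 (9747 genes). Leaving out 1 of the 8 libraries at a time gave 35 to 99 that rose and 185 to 308 that fell. Leaving out any library except KO DHT+ENZ replicate 2 moved the first count by over 1.5 times, and leaving out any except replicate 2 of either group did so for the second. Replicates 1 and 4 alone, with control-cell replicate 1 among them, gave 0 and 0 (1172 at an unadjusted p under 0.05, edgeR). Replicates 2 and 3 alone gave 109 and 169. The cause of these differences was not tested. DESeq2 size factors in edgeR (145 and 356), no filter on low counts (137 and 343), a length trend correction (199 and 416) and limma-voom (97 and 247) stayed within 1.5 times. No fold change of the 135 named genes changed direction past a threshold, and 86 of the 135 lost their call with no replicate block.

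The 92 called transcripts became 0 with no replicate block, 1 with only the 8 libraries, 182 with at least 50 counts, and 27 to 95 with 1 library left out. The share test, at 0 calls, gave 0 to 1 with 1 library left out (1 without KO DMSO replicate 3 and 1 without replicate 4). KO DHT+ENZ against KO DHT fell from 591 to 45 calls with no replicate block. At 31.8 to 35.5 M counts a library, genes below 1 CPM rest on few reads.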
